A study of Mus musculus with 4 samples.

Results

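The genes described here encode 9 receptors through which hormones and growth factors act on pancreatic islet cells: Glp1r, Gipr, Gcgr, Ghsr, Vipr2, Prlr, Sstr3, Igf1r and Insr. They were taken by symbol from the 32285 genes of a single-cell RNA-seq matrix, and all 9 were in it. The cells were dispersed from hand-picked mouse islets after overnight culture. The labels give 2 samples of Xbp1 beta-/- mice (KO), which lack the transcription factor gene Xbp1 in beta cells, and 2 samples of Xbp1 fl/fl mice (WT). Mice of both groups were 5 weeks old and had been injected with tamoxifen, and the series title places them in the NOD strain, a model of autoimmune diabetes. Which promoter drives Cre is not named in the labels. The pooled matrix holds 4 libraries that no label ties to a sample, so the genotypes were not compared and nothing was tested. Values are therefore listed library by library, under numbers that have no meaning beyond a name.

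Glp1r, Gipr, Gcgr and Vipr2 bind glucagon-like peptide 1, gastric inhibitory polypeptide, glucagon and vasoactive intestinal peptide. They couple to Gs, and the cyclic AMP they raise amplifies glucose-stimulated insulin secretion. Ghsr is the ghrelin receptor, and Sstr3 is a Gi-coupled somatostatin receptor known from primary cilia. Prlr signals through the kinase JAK2 and the transcription factor STAT5 and is known for the growth of beta cells in rodent pregnancy. Insr and Igf1r are receptor tyrosine kinases that share the insulin receptor substrates and the PI3K and Akt pathway.

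The promoters of 4 members are shown, since these are the receptors whose levels separated the islet cell types: Glp1r, Prlr and Igf1r, high in beta cells, and Ghsr, high in delta cells. Each window runs from 250 bases before to 50 bases after a transcript start in RefSeq (GRCm38.p6), 300 bases in all, and is written 5′ to 3′ on the gene's strand, plus in each case. Capitals mark 4 motifs, searched on both strands and written here as on the plus strand. The GC box was searched as GGGCGG, and the TATA box, the core promoter element, as TATAAA. The core of the cyclic AMP response element was searched as TGACGT, and the CCAAT box by the letters of its name. The 2 GC boxes on the right of the Glp1r window overlap.
Glp1r, chr17:30901617-30901916: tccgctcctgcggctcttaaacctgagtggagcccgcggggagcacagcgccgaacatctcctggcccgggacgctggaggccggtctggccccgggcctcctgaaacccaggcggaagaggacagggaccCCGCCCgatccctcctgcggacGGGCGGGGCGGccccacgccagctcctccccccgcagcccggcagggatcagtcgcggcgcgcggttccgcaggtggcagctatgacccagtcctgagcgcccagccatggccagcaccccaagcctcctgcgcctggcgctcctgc
Prlr, the first of 3 listed starts, chr15:10176988-10177287: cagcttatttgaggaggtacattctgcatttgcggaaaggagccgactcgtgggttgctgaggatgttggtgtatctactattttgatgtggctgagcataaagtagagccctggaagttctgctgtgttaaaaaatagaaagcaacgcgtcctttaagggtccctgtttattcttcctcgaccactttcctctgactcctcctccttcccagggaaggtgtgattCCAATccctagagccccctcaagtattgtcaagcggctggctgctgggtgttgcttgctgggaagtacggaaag
Igf1r, chr7:67952007-67952306: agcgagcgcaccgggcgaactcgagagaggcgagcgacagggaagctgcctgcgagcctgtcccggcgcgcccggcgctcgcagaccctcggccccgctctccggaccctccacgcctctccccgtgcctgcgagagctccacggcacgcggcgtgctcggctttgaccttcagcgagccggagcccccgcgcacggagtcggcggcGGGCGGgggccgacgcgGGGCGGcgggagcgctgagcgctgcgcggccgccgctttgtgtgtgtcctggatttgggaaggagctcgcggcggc
Ghsr, chr3:27371101-27371400: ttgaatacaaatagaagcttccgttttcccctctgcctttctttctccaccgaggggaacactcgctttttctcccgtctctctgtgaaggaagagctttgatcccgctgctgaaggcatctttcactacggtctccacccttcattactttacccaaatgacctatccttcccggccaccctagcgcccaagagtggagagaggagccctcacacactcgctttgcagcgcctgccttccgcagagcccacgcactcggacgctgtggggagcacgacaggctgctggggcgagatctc
The Glp1r window held 3 GC boxes and the Igf1r window 2, at 73.7% and 76% G and C. The window of this Prlr start held 1 CCAAT box and no GC box, at 49.3% G and C. The Ghsr window held 0 of the 4 motifs, at 56.3% G and C. Of 32851 promoters of the same length, 35.7% held a GC box, 13.6% a TATA box, 7.51% the TGACGT core and 37.4% a CCAAT box. A match is a description of letters and not a bound site.

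In GENCODE M21 (GRCm38), Glp1r (ENSMUSG00000024027) lies on chromosome 17 from 30901817 to 30940791, plus strand. Igf1r (ENSMUSG00000005533) lies on chromosome 7 from 67952827 to 68233668, plus strand, and Ghsr (ENSMUSG00000051136) on chromosome 3 from 27371351 to 27378010, plus strand. The Igf1r start given here lies downstream of its promoter window, which was placed by a RefSeq start and ends at 67952306. Prlr (ENSMUSG00000005268) lies on chromosome 15 from 10177238 to 10349180, plus strand. It shares 203 exon bases with Gm21973 on the same strand, a gene that has no row in the matrix. Gipr (ENSMUSG00000030406) lies on chromosome 7 from 19156061 to 19166127 on the minus strand, and Gcgr (ENSMUSG00000025127) on chromosome 11 from 120530699 to 120538986, plus strand. Vipr2 (ENSMUSG00000011171) lies on chromosome 12 from 116077726 to 116146261, plus strand. Sstr3 (ENSMUSG00000044933) lies on chromosome 15 from 78537008 to 78544685 and Insr (ENSMUSG00000005534) on chromosome 8 from 3122061 to 3279617, both on the minus strand. The exons of the other 8 members share no base with another gene.

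Filters on cells (500 genes or more, and 20% or less of UMIs from mitochondrial genes) left 16146 of 19987 barcodes. UMIs, unique molecular identifiers, count captured transcripts. The libraries held 82963911 to 178396311 UMIs. Classes were set by hormone share: beta cells have at least 5% of UMIs from Ins2, alpha cells 5% from Gcg, delta cells 3% from Sst and pancreatic polypeptide cells 2% from Ppy. Beta cells were split at 0.5% of UMIs from Spp1 (osteopontin), a secreted phosphoprotein and ductal marker. Of the cells that met a rule, 10253 met 1, and the 886 that met more (7.95%) were left out. In libraries 1 to 4 there were 354, 131, 374 and 219 beta cells with high Spp1, and 233, 3189, 354 and 1989 with low Spp1. Alpha cells numbered 246, 717, 278 and 678, delta cells 210, 400, 308 and 379, and pancreatic polypeptide cells 23, 77, 37 and 57. All 7 beta markers were above 0 in both beta classes and all 6 alpha markers in alpha cells. All 4 delta and all 4 pancreatic polypeptide markers were above 0 in their own classes. Presence does not tell the classes apart, since all 4 delta markers were above 0 in both beta classes and in alpha cells too. Gcg, Sst and Ppy are markers as well as rule genes. Of the 4 pancreatic polypeptide markers, Meis2 alone stood higher in delta cells (512.8 to 635.9 CPM) than in pancreatic polypeptide cells (314.2 to 370.9 CPM). The beta marker Iapp also stood at 51352.8 to 78332.9 CPM in delta cells. Leukocyte-like and endothelial-like cells, defined by 5 UMIs or more over 5 markers each and no hormone rule, give the level in cells outside the endocrine classes. Barcode sequences found in more than 1 library numbered 28 among kept cells.

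Levels are CPM, the UMIs of a gene in a class and library over all UMIs of that class and library, scaled as usual for counts, and are compared only for the same gene. The 7 main hormone genes took 45.1 to 57.8% of UMIs in beta cells with low Spp1, 25.8 to 30.01% in alpha cells and 23.0 to 28.2% in delta cells. CPM of the remaining genes is lowered by that share, most of all in beta cells. The median gene was at a log2 ratio of -0.38 between beta cells with low Spp1 and alpha cells and of -0.40 against delta cells, and at -0.02 and 0.02 with these 7 genes left out of the total. A gene is said here to differ between 2 classes where the log2 ratio of CPM plus 10 was at least 2-fold in the same direction in every library with 50 cells or more in both classes. Folds and their 95% intervals are of CPM without the added 10, and intervals cover counting error only. Where classes are said not to overlap, their CPM ranges over the libraries are meant. The share of all genes without overlap was not counted, so a lack of overlap is a description of that member only.

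Of the 9 receptors, Glp1r, Prlr and Igf1r were at least 2-fold higher in beta cells with low Spp1 than in alpha cells in all 4 libraries, and none was lower. Of 9310 genes at 10 CPM or more in either class, 1.31% were higher and 3.78% lower by this rule. The hormone genes that define the classes are counted among all genes, here and below, also where they are left out of the total. With hormone genes left out, 311 genes were higher and 221 lower, against 122 and 352 with all genes in the total, and the same 3 receptors were higher. Against delta cells, Prlr was higher (0.874% of 9267 genes were) and Ghsr lower (3.71% were). With hormone genes left out, 205 genes were higher and 215 lower, against 81 and 344. Against pancreatic polypeptide cells, which only libraries 2 and 4 hold in sufficient number, Glp1r, Prlr and Igf1r were higher (2.79% of 8140 genes) and no receptor was lower (5.25%). Here 439 genes were higher and 457 lower with hormone genes left out, against 227 and 427. Between alpha and delta cells, no receptor was higher in alpha cells (2.18% of 9747 genes) and Glp1r, Ghsr and Igf1r were lower (3.03%). The minimum of 10 CPM was reached by 7 of the 9 receptors in each comparison among beta, alpha and delta cells and by 5 in the comparison with pancreatic polypeptide cells; Vipr2 reached it in none. A member reaches it partly through the class where it is high, and the members were chosen with earlier results of these data known, so these shares describe the members and give no support of their own.

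**Figure D1:**
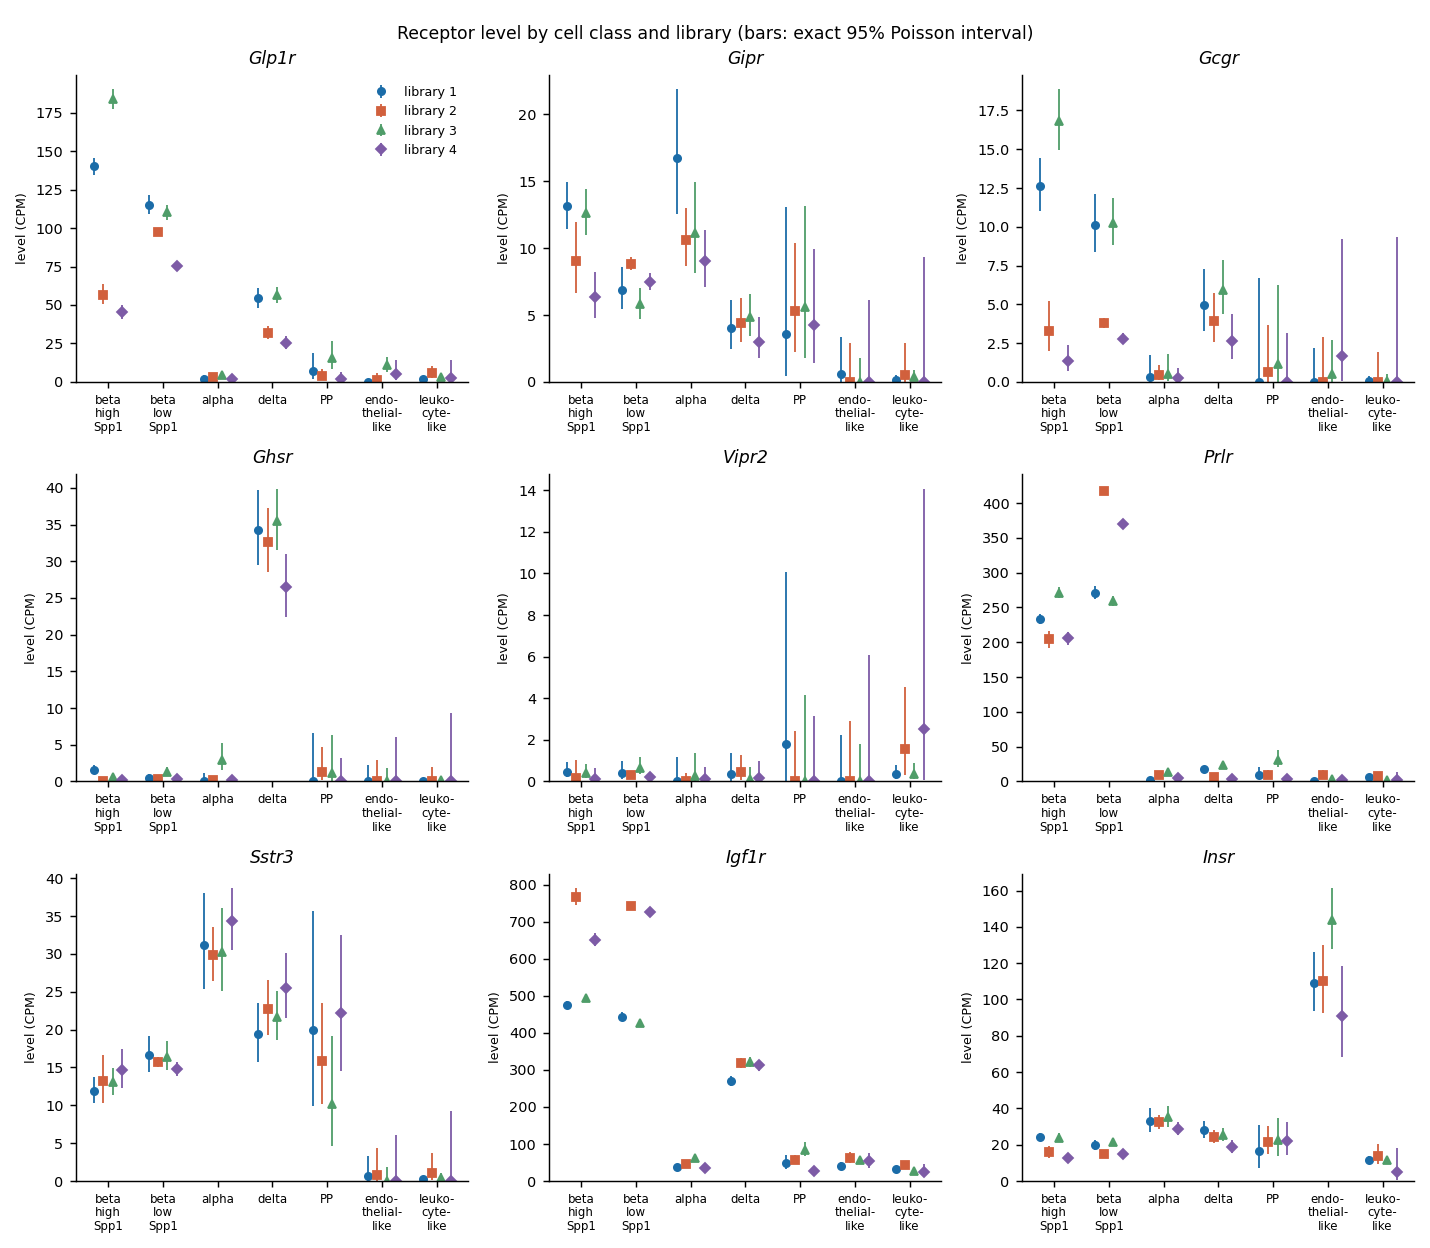
Level of each receptor in CPM (linear axis from 0, its own scale in each panel) in beta cells with high and low Spp1, alpha, delta, pancreatic polypeptide (PP), endothelial-like and leukocyte-like cells. Each point is 1 library and each bar its exact 95% Poisson interval. Glp1r, Prlr and Igf1r are high in both beta classes, Ghsr in delta cells at 26.5 to 35.5 CPM, and Insr in endothelial-like cells at 90.9 to 143.9 CPM.

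Glp1r, whose ligand is an incretin released by the gut, stood at 115, 97.5, 110.2 and 75.4 CPM in beta cells with low Spp1 in libraries 1 to 4. In alpha cells it stood at 2.21, 3.29, 4.46 and 2.23 CPM. Every library held a level in beta cells above that of every library in alpha cells, and the fold ran from 24.7 (15.6 to 41.8) in library 3 to 52.1 (25.2 to 129.9) in library 1. The alpha cell level was in the range of leukocyte-like cells, at 1.67, 5.72, 2.93 and 2.53 CPM. Whether it is background was not tested. Delta cells held 54.4, 32.1, 56.5 and 25.4 CPM, above every level in alpha cells. Alpha cells were lower than delta cells by this rule, with folds of 0.0406 (0.0162 to 0.0846), 0.103, 0.0790 and 0.0877. The Glp1r UMIs of delta cells were spread over 126 of 210, 152 of 400, 184 of 308 and 114 of 379 cells. Ins2 transcripts were present in delta cells too. Carried along with Ins2 in the ratio of beta cells, Glp1r would have reached 1.67, 2.95, 1.73 and 1.31 CPM there. The part of beta cell RNA in the Glp1r level of delta cells was not tested. Beta cells with low Spp1 held 2.11 (1.86 to 2.41), 3.04, 1.95 and 2.97 times the CPM of delta cells. The log2 ratio fell short of 2-fold in libraries 1 and 3, at 0.96 and 0.85, and with hormone genes left out it was 1.31 to 2.15 in all 4. Pancreatic polypeptide cells held 4, 6, 14 and 2 Glp1r UMIs in all. The order of the levels was thus beta, delta and then alpha cells in each library.

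Gipr, the receptor of the other incretin, was low throughout. It stood at 6.89, 8.84, 5.80 and 7.50 CPM in beta cells with low Spp1, at 16.7, 10.6, 11.2 and 9.03 CPM in alpha cells and at 4.03, 4.38, 4.83 and 3.02 CPM in delta cells. Alpha cells held the highest of these 3 levels in every library and delta cells the lowest. Alpha cells held 4.15 (2.46 to 7.25), 2.43, 2.31 and 2.99 times the level of delta cells, which did not reach 2-fold with the added 10. Between beta and alpha cells the log2 ratio was -0.66, -0.13, -0.42 and -0.12, and with hormone genes left out it was 0.30 and 0.27 in libraries 2 and 4, so the direction turned there. Leukocyte-like cells held 0.139, 0.520, 0.355 and 0 CPM. After each cell was thinned to 5000 UMIs, 2.74 to 5.52% of beta cells with low Spp1 and 3.67 to 4.93% of alpha cells held a Gipr UMI, against 0 to 0.699% of leukocyte-like cells.

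Gcgr, the glucagon receptor, was at or under 0.5 CPM in alpha cells, the cells that make glucagon. Beta cells with low Spp1 held 10.1, 3.80, 10.3 and 2.79 CPM from 119, 523, 184 and 213 UMIs. Alpha cells held 0.315, 0.439, 0.496 and 0.247 CPM from 1, 4, 2 and 2 UMIs. The fold of beta over alpha cells was 32.1 (5.65 to 1279), 8.67 (3.37 to 31.9), 20.7 (5.65 to 172) and 11.3 (3.08 to 93.6). Gcgr did not pass the 2-fold rule, since the added 10 CPM exceeds most of these levels, and it did pass with 1 CPM added. Delta cells held 4.99, 3.94, 5.94 and 2.66 CPM, close to beta cells in libraries 2 and 4, where the fold of beta over delta cells was 0.966 (0.656 to 1.48) and 1.05 (0.620 to 1.90). Pancreatic polypeptide cells held 0, 1, 1 and 0 UMIs.

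Ghsr stood in delta cells and was close to 0 elsewhere. Beta cells with low Spp1 held 0.426, 0.335, 1.28 and 0.288 CPM, against 34.3, 32.7, 35.5 and 26.5 CPM in delta cells. The groups did not overlap, and the fold of beta over delta cells was 0.0124 (0.00398 to 0.0295), 0.0102, 0.0361 and 0.0109. Alpha cells held 0, 2, 12 and 2 UMIs. In library 1 a count of 0 allows up to 0.946 CPM, and in library 3 all 12 UMIs lay in 5 cells. Among delta cells thinned to 5000 UMIs, 14.6% (9.84 to 20.5%), 15.7%, 16.0% and 12.0% held a Ghsr UMI. Among leukocyte-like cells thinned likewise, 0 of 755, 0 of 143, 0 of 616 and 0 of 37 did, which allows shares of up to 0.397%, 2.10%, 0.487% and 8.11%. Its ligand gene Ghrl reached at most 0.184 CPM in any of the 5 hormone classes.

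Sstr3 was measured in every endocrine class and was close to 0 outside them. It stood at 16.6, 15.7, 16.4 and 14.8 CPM in beta cells with low Spp1, at 31.2, 29.8, 30.2 and 34.4 CPM in alpha cells and at 19.4, 22.8, 21.7 and 25.6 CPM in delta cells. Alpha cells held the highest level in each library, and the 3 classes did not overlap in CPM with all genes in the total. In library 4 beta cells with low Spp1 held 0.430 (0.377 to 0.492) times the level of alpha cells, and with 10 CPM added no pair of these classes reached 2-fold in any library. The log2 ratio of beta cells over alpha cells was -0.63, -0.63, -0.60 and -0.84, and -0.15 to -0.41 with hormone genes left out. Against delta cells it was -0.14 to -0.52, and 0.24, 0.19, 0.05 and -0.05 with hormone genes left out, so that this direction depends on the scaling in libraries 1 to 3. Pancreatic polypeptide cells held 10.1 to 22.2 CPM, which overlaps both beta and delta cells. Leukocyte-like cells held at most 1.04 CPM.

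Vipr2 was hardly detected. It reached at most 0.669 CPM in beta, alpha or delta cells, from at most 42 UMIs, and pancreatic polypeptide cells held 1, 0, 0 and 0 UMIs. No order between classes can be read at this depth.

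**Figure D2:**
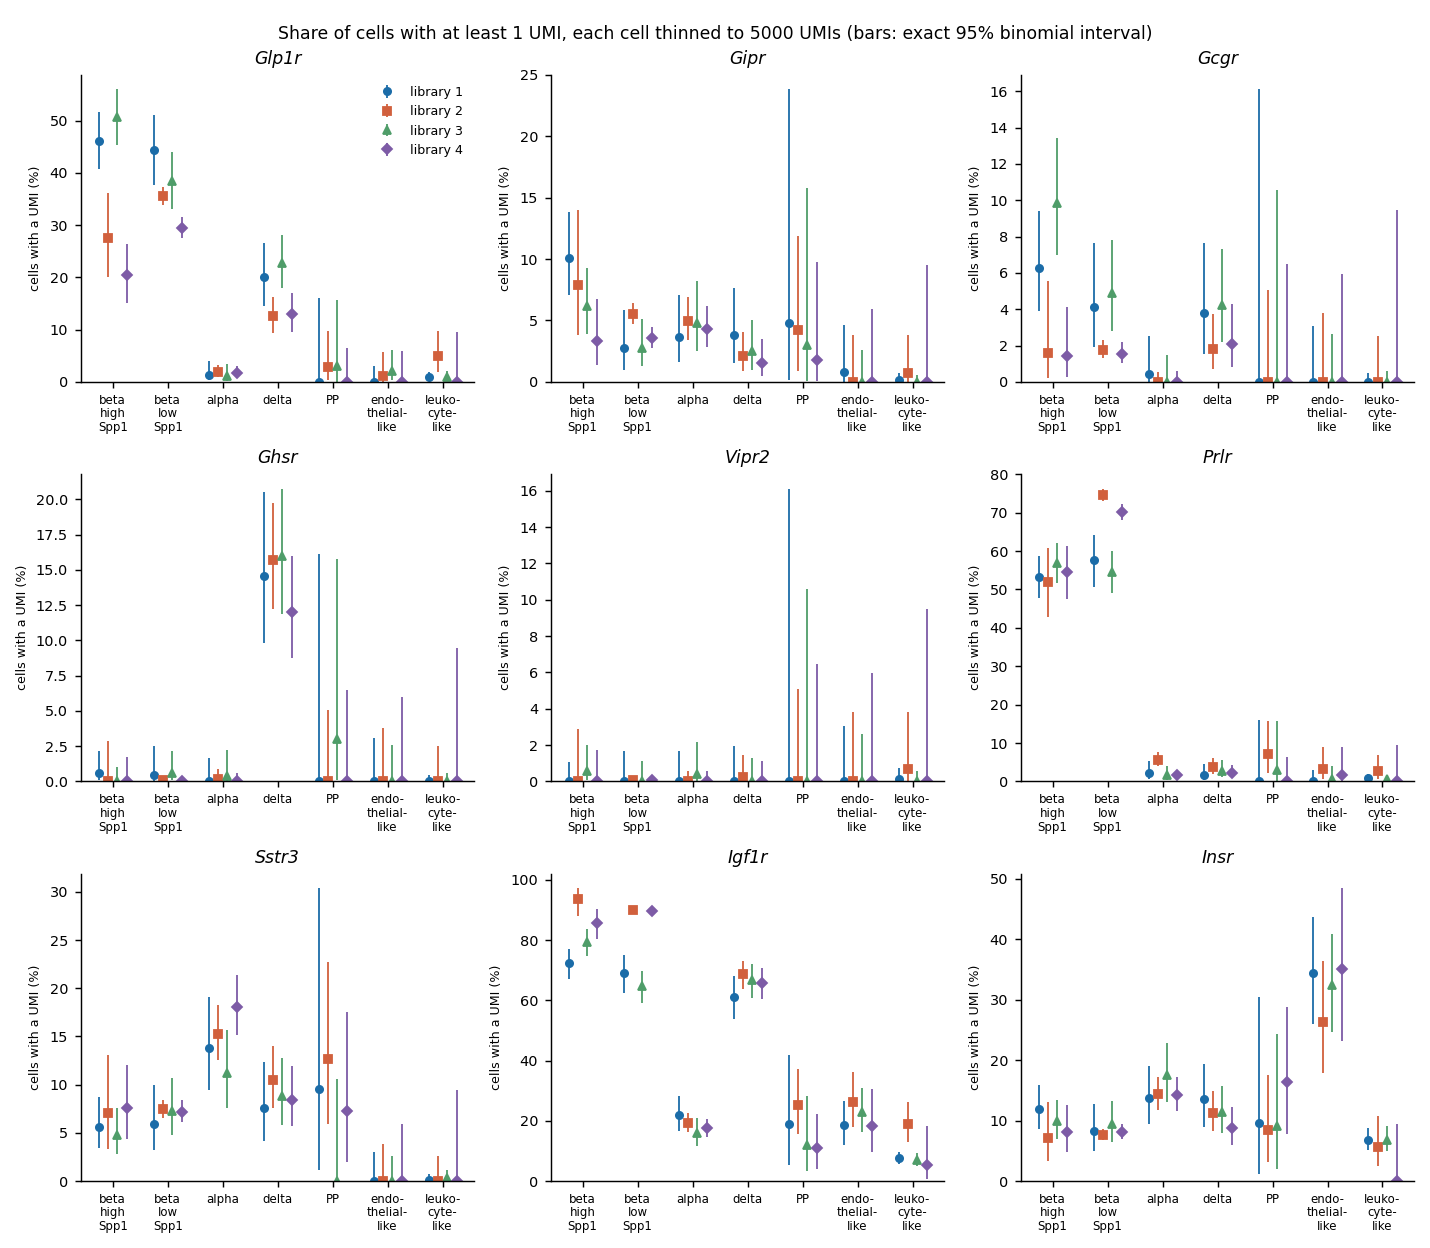
Share of cells with at least 1 UMI of each receptor after every cell was thinned to 5000 UMIs (linear axes from 0), by class and library; shallower cells were left out and bars are exact 95% binomial intervals. Prlr and Igf1r were found in most beta cells with low Spp1, at 54.6 to 74.7% and 64.6 to 90.07%, and Igf1r also in 61.1 to 68.6% of delta cells.

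Prlr stood almost only in beta cells. Beta cells with low Spp1 held 271, 417, 259 and 370 CPM, against 2.52, 9.54, 13.9 and 4.70 CPM in alpha cells and 18.2, 7.15, 24.0 and 3.73 CPM in delta cells. The fold over alpha cells was 107 (54.4 to 249), 43.7, 18.7 and 78.7, and the fold over delta cells 14.9 (12.1 to 18.4), 58.4, 10.8 and 99.3. No level in a beta class came near one in another class. In alpha and delta cells of libraries 2 and 4, Prlr lay at or under the 6.41 to 14.9 CPM that the Ins2 present there would carry in the ratio of beta cells. In libraries 1 and 3 it lay above the 1.29 to 4.07 CPM so carried. There it was held by few cells: 78 of 95 UMIs of delta cells in library 1 lay in 5 cells, 160 of 194 in library 3, and 54 of 56 UMIs of alpha cells in library 3. Only 1.62% and 2.84% of thinned delta cells of libraries 1 and 3 held a Prlr UMI. Whether these cells hold RNA of a beta cell was not tested, since no doublet caller was run. In pancreatic polypeptide cells of library 3, all 28 UMIs lay in 2 of 37 cells.

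Igf1r was high in beta cells, lower in delta cells and low in alpha cells. Beta cells with low Spp1 held 444, 743, 427 and 726 CPM, alpha cells 39.1, 46.3, 61.7 and 36 CPM, and delta cells 270.5, 319, 321 and 313 CPM. The 3 classes did not overlap. The fold of beta over alpha cells was 11.4 (9.50 to 13.7), 16.0, 6.92 and 20.2, and the fold of alpha over delta cells 0.145 (0.119 to 0.174), 0.145, 0.192 and 0.115. The fold of beta over delta cells was 1.64 (1.55 to 1.74), 2.33, 1.33 and 2.32, and did not pass in libraries 1 and 3. With hormone genes left out, the log2 ratio was 1.24, 1.97, 0.86 and 1.92, short of 2-fold in library 3 only. Pancreatic polypeptide cells, at 48.9, 56.0, 84.3 and 28.2 CPM, and endothelial-like cells, at 41.5 to 62.2 CPM, overlapped alpha cells. Among alpha cells thinned to 5000 UMIs, 15.9 to 22.0% held an Igf1r UMI, against 7.55%, 18.9%, 6.98% and 5.41% of leukocyte-like cells. In library 2 these shares were 19.3% (16.3 to 22.5%) and 18.9% (12.8 to 26.3%), so that at this depth alpha cells were not above leukocyte-like cells there.

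Insr passed the 2-fold rule in no comparison of endocrine classes and was highest in endothelial-like cells. It stood at 19.7, 14.8, 21.7 and 14.9 CPM in beta cells with low Spp1, at 33.1, 32.5, 35.2 and 28.7 CPM in alpha cells and at 28.0, 24.2, 25.3 and 18.8 CPM in delta cells. The fold of beta over alpha cells was 0.594, 0.457 (0.404 to 0.518), 0.616 and 0.520. The log2 ratio of beta over alpha cells was -0.54, -0.77, -0.51 and -0.63, of which -0.20, -0.32, -0.28 and -0.17 remained with hormone genes left out. Against delta cells it was -0.36, -0.46, -0.15 and -0.21, and 0.03, 0.05, 0.19 and 0.30 with hormone genes left out, a change of direction in all 4 libraries. Endothelial-like cells held 109, 110.2, 143.9 and 90.9 CPM, above every endocrine class, and leukocyte-like cells 11.8, 14.1, 11.6 and 5.05 CPM. Of thinned endothelial-like cells 26.3 to 35% held an Insr UMI, against 6.75%, 5.59%, 6.82% and 0% of leukocyte-like cells.

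**Figure D3:**
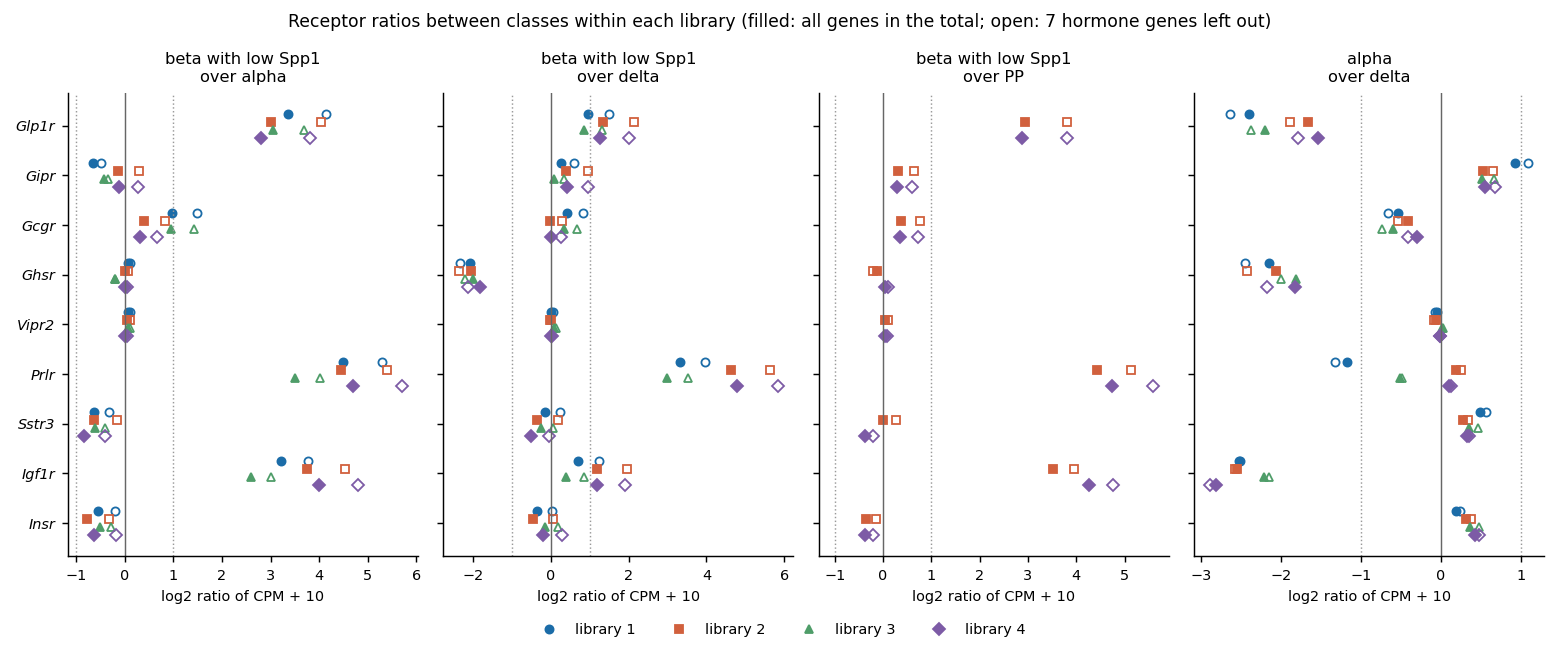
Log2 ratio of CPM plus 10 for each receptor in beta cells with low Spp1 over alpha, delta and pancreatic polypeptide (PP) cells, and in alpha over delta cells, 1 point per library; dotted lines mark 2-fold. Filled points count all genes in the total and open points leave out 7 hormone genes, which moves Glp1r over delta cells past 2-fold in all 4 libraries and turns Insr over delta cells from below 0 to above 0.

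Beta cells with high Spp1 were set against those with low Spp1 in the same library. No receptor was at least 2-fold higher or lower in all 4 libraries, and of 8422 genes 0.0475% were higher and 0.0119% lower. Spp1 itself, the gene of the split, is counted among those higher (20763 against 793.4 CPM in library 1). Glp1r stood at 140.1, 56.7, 183.6 and 45.5 CPM in cells with high Spp1, and its fold over cells with low Spp1 was 1.22 (1.14 to 1.30), 0.582 (0.518 to 0.651), 1.67 (1.57 to 1.76) and 0.603 (0.543 to 0.667). It was thus above 1 in libraries 1 and 3 and under 1 in libraries 2 and 4, with intervals that leave out 1 in each. With hormone genes left out, its log2 ratio was -0.02, -0.80, 0.51 and -0.74. Prlr stood at 233, 204, 271 and 206 CPM, and its fold was 0.861 (0.821 to 0.902), 0.489 (0.461 to 0.519), 1.05 (1.005 to 1.09) and 0.556 (0.530 to 0.583). The log2 ratio of Prlr with hormone genes left out was -0.51, -1.08, -0.14 and -0.90, below 0 in all 4 libraries. Gipr had folds of 1.90 (1.47 to 2.49) and 2.17 (1.71 to 2.77) in libraries 1 and 3, and of 1.02 (0.751 to 1.36) and 0.845 (0.630 to 1.11) in libraries 2 and 4. Gcgr had folds of 1.25, 0.872, 1.64 and 0.487. Igf1r, at 475, 768, 494 and 652 CPM in cells with high Spp1, had folds between 0.899 and 1.16. Its log2 ratio with hormone genes left out was -0.21, -0.01, 0.00 and -0.21, so that the direction turned in libraries 1 and 2. Sstr3 had folds under 1 in 4 of 4 libraries, 0.720 (0.589 to 0.881), 0.843 (0.657 to 1.07), 0.794 (0.664 to 0.948) and 0.994 (0.823 to 1.19), with intervals that hold 1 in libraries 2 and 4.

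The split by Spp1 did not fall alike in the libraries. Beta cells with Spp1 at 1% of UMIs or more numbered 278, 53, 270 and 95, those between 0.5 and 1% numbered 76, 78, 104 and 124, and those just under it, between 0.25 and 0.5%, 39, 150, 66 and 122. Hormone genes took 35.01%, 55.9%, 36.5% and 54.8% of UMIs in cells with high Spp1, against 47.5%, 57.8%, 45.1% and 56.7% in cells with low Spp1. The 5 ductal markers other than Spp1 summed to 513 to 681 CPM in cells with high Spp1, where Cftr was at 0 in library 2, against 427 to 516.5 CPM in cells with low Spp1. The 4 acinar markers summed to 2936 CPM in cells with high Spp1 of library 1, against 78.0 CPM in cells with low Spp1 there, and in the other libraries to at most 4.63 CPM, against at most 4.01 CPM. All 4 were at 0 in cells with high Spp1 of library 2. The part of these in the receptor values was not tested.

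**Figure D4:**
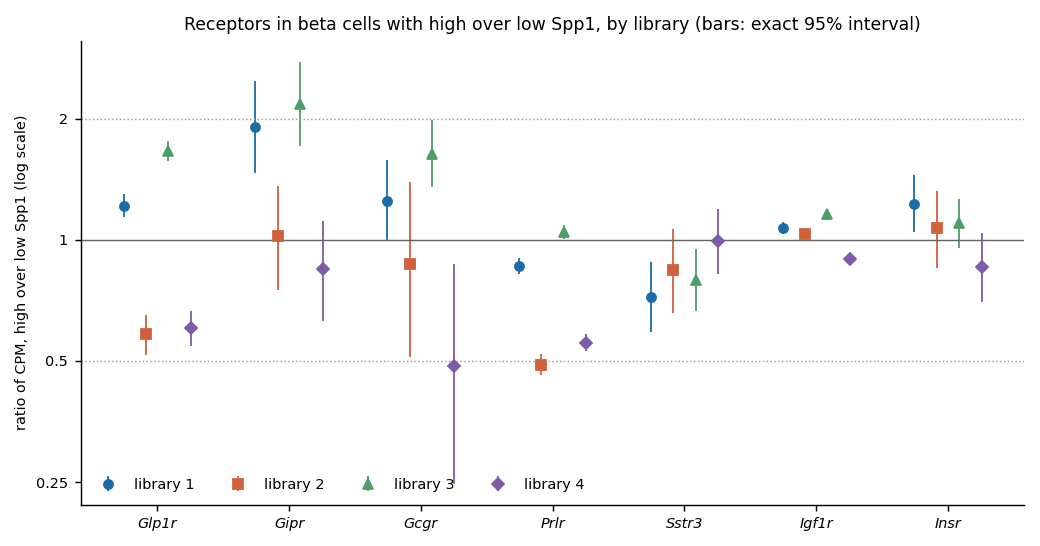
Ratio of CPM in beta cells with high Spp1 over beta cells with low Spp1 (log axis) for the 7 receptors at 10 CPM or more, 1 point per library with its exact 95% interval; dotted lines mark 2-fold either way. Glp1r lies above 1 in libraries 1 and 3 (1.22 and 1.67) and under 1 in libraries 2 and 4 (0.582 and 0.603).

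The receptors also varied between libraries within a class. In beta cells with high Spp1, Glp1r and Gcgr spanned more than 2-fold from the highest to the lowest library, 3.49-fold and 2.36-fold with 10 CPM added, as 12.0% of 8271 genes did. Igf1r did so too, at 2.37-fold, where hormone genes were left out (9.81% of the same genes). In beta cells with low Spp1 no receptor did (4.63% of 7737 genes). With hormone genes left out Igf1r spanned 2.25-fold and Prlr 2.08-fold there (5.65% of the same genes). In alpha cells no receptor spanned 2-fold (2.90% of 8943 genes), and with hormone genes left out Prlr spanned 2.23-fold (3.29% of the same genes). In delta cells only Prlr did, at 2.48-fold (3.52% of 9023 genes), in the few cells described above. Igf1r in delta cells spanned 1.18-fold and Ghsr 1.25-fold. In beta cells with low Spp1, libraries 2 and 4 held more Igf1r and Prlr than libraries 1 and 3, while for Gcgr libraries 1 and 3 held more.

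Beta cells held transcripts of more of these 9 receptors per cell than other classes. The count covers these members only, and no like count was made for other receptors. Of the 9, Glp1r, Prlr and Igf1r were high in beta cells. Among cells thinned to 5000 UMIs, the median number of the 9 receptors with a UMI was 2 in both beta classes, 1 in delta cells and 0 in alpha and pancreatic polypeptide cells, in each library. At least 3 receptors were found in 24.4 to 36.1% of beta cells with low Spp1, in 0.794 to 1.39% of alpha cells and in 5.11 to 8.65% of delta cells. Among leukocyte-like cells 72.7 to 94.6% held none.

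Other genes of the same pathways were counted from lists, to be read beside the shares over all genes given above for each comparison (1.31% higher and 3.78% lower in beta cells with low Spp1 than in alpha cells). Among 32 other receptors of islet peptides and growth factors, 12 reached 10 CPM in beta cells with low Spp1 or alpha cells. None was higher and 3 were lower in beta cells: Oxtr, the oxytocin receptor (median log2 ratio -3.03), Avpr1b, a vasopressin receptor (-2.47), and Sstr2, another somatostatin receptor (-1.74). In library 1, Oxtr held 5.87 CPM in beta cells with low Spp1, against 85.2 CPM in alpha cells. Without hormone genes in the total, 2 were higher and 3 lower. Over the 12, the median log2 ratio was -0.63, beside -0.38 for all genes. Of 21 receptors of nutrients and neurotransmitters, 11 reached 10 CPM and 2 were higher, the adrenergic receptor Adra2a (2.28) and the GABA-B subunit Gabbr2 (1.64), while Gpr119 (-1.73) and Adora2a (-1.505) were lower, Adora2a not so with hormone genes left out. The counts were then 5 higher and 2 lower. The list's median was -0.12. Against delta cells, 3 of the 9 of these receptors at 10 CPM were higher, Gabbr2 (2.65), the free fatty acid receptor Ffar1 (2.51) and the muscarinic receptor Chrm3 (1.53), and Ffar4, another fatty acid receptor, was lower (-2.83). In library 2, Ffar4 held 3.10 CPM in beta cells with low Spp1, against 119.6 CPM in delta cells.

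Of 37 genes of cyclic AMP signalling, 26 reached 10 CPM in beta cells with low Spp1 or alpha cells, none was higher and 3 were lower in beta cells. These were Gnas, which encodes the Gs alpha subunit (-3.22), the phosphodiesterase Pde4d (-2.61) and the Gi subunit Gnai1 (-2.49). Gnas stood at 1038, 563, 1060 and 590.5 CPM in beta cells with low Spp1, against 7312, 7113, 7140 and 7762 CPM in alpha cells. Without hormone genes in the total, 2 genes of this list were higher and 3 lower. The list's median was -0.51. Of 27 tested genes of insulin and IGF signalling, the translation repressor Eif4ebp1 was higher (1.502) and the adaptors Grb10 (-1.82) and Grb14 (-1.38) were lower in beta cells, with a median of -0.42. With hormone genes left out, 2 were higher and 1 lower, and Grb14 did not pass. Between alpha and delta cells, Grb10 (2.00) and the adaptor Shc1 (1.41) were higher and Eif4ebp1 (-1.69) lower in alpha cells, with a median of 0.10 over 28 genes, beside -0.01 for all genes. Of the tested genes of prolactin and growth hormone signalling, 13 in the comparison with pancreatic polypeptide cells and 12 in the other 4, none was higher or lower in any of the 5 comparisons. Of 8 IGF binding proteins, 4 reached 10 CPM in beta cells with low Spp1 or alpha cells and 2 were lower in beta cells, Igfbp4 (-3.06) and Igfbp7 (-2.31), with a median of -1.71. Igfbp7 was also lower than in delta cells (-2.75). Of 14 genes of ligands of the receptors, Gcg, Sst, Ins1 and Ins2 were left out as hormone genes of the classes themselves. Of the other 10, 1 reached 10 CPM in beta cells with low Spp1 or alpha cells, and it did not pass the 2-fold rule. Against pancreatic polypeptide cells, 2 of 25 tested genes of cyclic AMP signalling were higher in beta cells with low Spp1 and 4 lower, beside 2.79% and 5.25% of all genes. Those of the largest ratio were Gnai1 (-2.41), Crem (1.99), a transcription factor gene of the cyclic AMP response, Gnas (-1.74) and Pde4d (-1.51). Of 26 tested genes of insulin and IGF signalling, Eif4ebp1 (1.38) and Pik3r1 (1.33), which encodes a regulatory subunit of PI3K, were higher, and Grb14 (-1.55) and Grb10 (-1.34) lower, Grb10 not so with hormone genes left out. No gene of any of the 7 lists was past 2-fold in every library between beta cells with high and low Spp1.

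The genes with the pattern most like a member were taken by Pearson's r of log2 CPM plus 10 over 18 points, the classes and libraries with 50 cells or more. The points share libraries and differ in depth and in hormone share, so r is a description. Glp1r was most like Gng12 (r = 0.98), Vstm2l (0.98) and Fkbp1b (0.98), and Prlr most like Gpr45 (0.99), Mafa (0.99) and Tmem215 (0.98). Ghsr was most like Luzp2 (0.99), Tcea3 (0.99) and Gpr153 (0.99), and Igf1r most like Rasgrf1 (0.98), Ttyh1 (0.98) and Adra2a (0.97). Gcgr was most like Ctnnbip1 (0.96), Fbxo2 (0.96) and Atp6v1e1 (0.95), which fell to 0.900, 0.936 and 0.817 with hormone genes left out. Lifr (0.91) and Cyth3 (0.89) were among the 3 genes most like Gipr. For Sstr3 the nearest were Oxtr (0.96), Dpp10 (0.95) and Srp54a (0.94), of which Oxtr and Dpp10 fell to 0.63 and 0.66 with hormone genes left out. For Insr they were Gigyf1 (0.97), Ldb1 (0.97) and Nisch (0.97), which fell to 0.835, 0.845 and 0.914 with hormone genes left out. Vipr2 was too low for its pattern to be read.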

How the data were processed

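Single-cell RNA-seq libraries of dispersed islet cells were made with 10x Genomics protocols, per the labels' protocols. The authors deposited UMI counts per gene and cell, made with Cell Ranger 6.1.2 on mm10, per the submitters' processing notes. The annotation, the transcript end read and the use of strand are not stated, and antisense genes overlap Glp1r, Gcgr, Vipr2 and Insr without shared exon bases. The number that ends each barcode, 1 to 4, was taken as its library. No label equals one of these numbers.

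The members and lists were chosen with earlier results of these data known. CPM of class sums in each library and log2 ratios with a pseudocount of 10 were computed (Python 3.11.15, numpy 2.4.6, scipy 1.17.1, pandas 2.3.3, matplotlib 3.10.9). The planned use of edgeR applied only if libraries could be tied to samples. Intervals are at the 95% level, Poisson for levels, Clopper-Pearson for shares and conditional binomial for folds. A count of 0 allows 3 counts. To compare shares across depths, each cell was thinned to 5000 UMIs and shallower cells were left out. Named list genes were up to 4 per list and comparison with the largest median ratio among those past 2-fold in every library. The 3 genes most like each member came from genes at 20 CPM or more in a class and library, and 1 of them is not reported here. The ratio step was checked on simulated counts. No doublet caller was run. Promoters of 7 of the 9 members were found in RefSeq.

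Alternatives were hormone genes left out of the total, a pseudocount of 1, a stricter cell filter, cells meeting several hormone rules kept, doubled hormone thresholds, an Spp1 threshold of 1%, cells weighted equally (mean CPM over cells), no filter on low genes and each library left out. Chosen after seeing the data were leaving out the 6% of cells with the most UMIs and leaving out beta cells near the Spp1 threshold.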

Additional observations from a re-analysis of the deposited data

Results flagged for a closer look

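Cells that met both the beta and the delta rule, 43, 104, 81 and 85 in libraries 1 to 4, entered no comparison, and each of the following levels is flagged because it lies above what a count of 0 allows. Ghsr stood at 14.8, 15, 16.4 and 10.5 CPM in them, against 0.426, 0.335, 1.28 and 0.288 CPM in beta cells with low Spp1 and 34.3, 32.7, 35.5 and 26.5 CPM in delta cells. Prlr stood at 144.5, 208, 182 and 247 CPM in the same cells, against 271, 417, 259 and 370 CPM in beta cells with low Spp1 and 18.2, 7.15, 24.0 and 3.73 CPM in delta cells. Both receptors thus lay between the levels of the beta and the delta class in every library. These cells held a median of 63547, 38981, 61463 and 45335 UMIs, against 45958, 42146, 47767.5 and 37222 in beta cells with low Spp1 and 20723, 16665.5, 22381 and 14438 in delta cells. Whether they are doublets was not tested.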

How the results depend on the processing

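Of 120 recomputed counts of receptors past 2-fold, 117 stayed within 1.5 times the main count. Receptors higher in beta cells with low Spp1 than in delta cells numbered 2 with hormone genes left out and 2 with mean CPM over cells, against 1, Glp1r being added. Receptors higher in alpha than in delta cells numbered 1 with a pseudocount of 1 (Gipr), against 0. A pseudocount of 1 also added Gcgr to those higher in beta than in alpha cells. With cells that meet several hormone rules kept, Igf1r was no longer higher than in pancreatic polypeptide cells and Glp1r no longer lower in alpha than in delta cells. Such a cell then entered each class whose rule it met. The comparison with pancreatic polypeptide cells then used 3 libraries, against 2 in the main setting. The part of each in these changes was not tested. Leaving out any 1 library added no receptor's call. It could not remove one by the 2-fold rule, which asks for every library used, but only through the 10 CPM minimum. Calls kept in these settings, which are among the 120 counts, are therefore no sign of stability. Of 495 recomputed ratios, 89 moved by more than the spread between libraries. No receptor past 2-fold changed sign, while smaller ratios did: with hormone genes left out, the median log2 ratio of beta cells with low Spp1 over delta cells was 0.12 for Insr, against -0.28, and 0.12 for Sstr3, against -0.30.

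Counts over all genes moved more. With a pseudocount of 1, 235 genes were higher and 956 lower in beta cells with low Spp1 than in alpha cells, against 122 and 352, and 153 higher and 782 lower than in delta cells, against 81 and 344. With cells meeting several rules kept, the counts were 71 and 234 against alpha cells and 23 and 165 against delta cells. For pancreatic polypeptide cells they were 368 and 1137 with a pseudocount of 1, against 227 and 427. With those cells kept they were 49 and 130, where 3 libraries rather than 2 were used. Between alpha and delta cells they were 390 and 562, and 127 and 138, against 212 and 295. Between beta cells with high and low Spp1, 4 genes were higher and 1 lower, against 17 and 4 with a pseudocount of 1, 8 higher without library 3 and 6 higher without beta cells near the Spp1 threshold. Spp1, the gene of the split, is among the 4 higher in the main setting. Depth limits Vipr2, Gcgr in alpha cells and all values of pancreatic polypeptide cells. Each class ratio was taken within a library and so pairs the classes by library. For the genotypes, whose samples share replicate numbers only by accession order, no fit could be made. No paired analysis was possible because no label ties a library to a sample.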
